A study of Mus musculus with 15 samples.

Results

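The protein-coding genes for mitochondrial ribosomal proteins were examined in quadriceps muscle of adult mouse offspring whose parents differed in diet and whose mothers differed in exercise during pregnancy. The genes were chosen by symbol, Mrpl or Mrps followed by a digit in the GENCODE mouse annotation, with a mean normalized count of at least 10 over 15 libraries. The rule took 77 of the 50686 genes of the deposited table, 48 named Mrpl and 29 named Mrps, and all 77 are among the 13499 genes tested. Mrpl53 matched the name but averaged 0.197 normalized counts, and the pseudogenes Mrpl23-ps1, Mrpl48-ps, Mrps36-ps1, Mrps36-ps2 and Mrps36-ps3 are not protein coding, so these were left out. The rule itself uses no measured difference between groups, but the set was chosen with earlier results of these data known.

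The parents were C57BL/6 mice, and each of the 5 groups holds 3 offspring libraries. In MHE the mother ate a 60% high-fat diet for 6 weeks before mating with a lean male and had an open running wheel in pregnancy. MHS had the same maternal diet with a locked wheel. In PHE the father ate the 60% high-fat diet for 6 weeks and the lean mother had an open wheel, and in PHS the lean mother's wheel was locked. NCS, chow for both parents and a locked wheel, served as control for both arms. All offspring, in every group, were on chow and sedentary from the day after birth and gave quadriceps at 10 months. RNA was depleted of ribosomal RNA before sequencing. The labels give neither sex nor litter, so p-values measure the spread between these libraries only, and the title codes have no stated meaning. The titles of all MHS libraries start with F7, as does that of MHE replicate 3. Those of MHE replicates 1 and 2 start with F3 and F5. Group and code thus coincide in part in this arm.

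The mitochondrial ribosome translates the few mRNAs of the mitochondrial genome, which encode core subunits of the respiratory chain and of ATP synthase. Its RNAs come from mitochondrial DNA, whereas all of its proteins are encoded in the nucleus, made in the cytosol and imported, so the particle depends on output from both genomes. The large subunit joins amino acids and holds the exit tunnel, the small subunit reads the mRNA, and each combines proteins inherited from bacteria with proteins found only in mitochondria. By textbook assignment 50 of the genes encode large-subunit proteins and 26 small-subunit proteins. These counts place Mrps30 and Mrps18a, despite their names, in the large subunit. The remaining gene, Mrps36, encodes a protein now assigned to the alpha-ketoglutarate dehydrogenase complex. Homologues of bacterial ribosomal proteins make up 48 of the genes and mitochondria-specific proteins 28.

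Promoters of nuclear genes for mitochondrial proteins are known for sites of NRF-1, of ETS-family factors such as GABPA, of YY1 and of estrogen-related receptors (ERR). RefSeq promoter windows of GRCm38.p6, from 250 bases before to 50 bases after the start, were found for 68 of the 77 genes, 74 windows in all. The windows of 5 genes are shown 5′ to 3′ because Mrps11 and Mrpl28 had the smallest p-values of PHE against NCS, Mrps11 and Mrpl46 start back to back, Mrpl32 varied least like the other genes, and Mrps12 was among the genes with the smallest p-values for exercise in the maternal arm. Capitals mark every match, on either strand, to GCGCATGC (NRF-1), CCGGAAG (ETS), AAGATGGC (YY1) or AAGGTCA (ERR).
Mrpl28: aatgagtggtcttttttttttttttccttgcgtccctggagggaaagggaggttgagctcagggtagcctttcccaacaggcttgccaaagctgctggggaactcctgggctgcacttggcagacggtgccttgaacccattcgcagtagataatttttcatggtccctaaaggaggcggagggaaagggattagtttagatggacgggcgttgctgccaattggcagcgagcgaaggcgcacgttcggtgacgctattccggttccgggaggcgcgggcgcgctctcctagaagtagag
Mrpl32: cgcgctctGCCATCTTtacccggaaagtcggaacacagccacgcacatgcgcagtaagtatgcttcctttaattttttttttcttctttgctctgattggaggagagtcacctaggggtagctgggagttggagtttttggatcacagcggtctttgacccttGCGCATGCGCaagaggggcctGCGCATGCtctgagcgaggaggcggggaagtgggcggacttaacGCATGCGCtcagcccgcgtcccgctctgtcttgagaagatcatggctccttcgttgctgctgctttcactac
Mrps11: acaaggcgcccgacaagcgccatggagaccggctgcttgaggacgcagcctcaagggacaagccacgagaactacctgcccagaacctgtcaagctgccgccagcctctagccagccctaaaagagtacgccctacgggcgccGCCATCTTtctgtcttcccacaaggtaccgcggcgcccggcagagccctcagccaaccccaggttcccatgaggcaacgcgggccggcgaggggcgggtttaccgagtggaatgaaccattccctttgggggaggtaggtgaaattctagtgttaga
Mrpl46: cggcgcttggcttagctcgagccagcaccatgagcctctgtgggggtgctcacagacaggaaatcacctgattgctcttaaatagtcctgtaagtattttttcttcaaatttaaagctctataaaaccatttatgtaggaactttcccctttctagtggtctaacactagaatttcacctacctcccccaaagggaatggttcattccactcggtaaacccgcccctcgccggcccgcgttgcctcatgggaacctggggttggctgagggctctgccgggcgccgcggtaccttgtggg
Mrps12: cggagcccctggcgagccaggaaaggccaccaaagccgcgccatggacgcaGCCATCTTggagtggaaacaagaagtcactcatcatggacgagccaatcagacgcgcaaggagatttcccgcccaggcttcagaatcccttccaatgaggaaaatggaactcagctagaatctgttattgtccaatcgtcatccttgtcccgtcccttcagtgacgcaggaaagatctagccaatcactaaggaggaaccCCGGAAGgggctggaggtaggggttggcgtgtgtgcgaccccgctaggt
The Mrpl28 window lies at chr17:26123253-26123552 on the forward strand and the Mrpl32 window at chr13:14612988-14613287 on the reverse strand. The Mrps11 window at chr7:78782881-78783180 on the forward strand and the Mrpl46 window at chr7:78783040-78783339 on the reverse strand share 141 bases, read in opposite directions. The Mrps12 window lies at chr7:28741772-28742071 on the reverse strand.

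Mrpl32 held 4 NRF-1 matches, starting 87, 85, 66 and 22 bases before the start site, of which the first and second overlap on opposite strands. It also held a YY1 match 242 bases before the start. Mrps11 held a YY1 match 107 bases before its start, Mrps12 a YY1 match 199 bases before its start and an ETS match at the start, and the Mrpl28 and Mrpl46 windows held none. Over the 68 genes, 25 (36.8%) held the ETS letters, against 19.2% of 10129 tested genes with a window and 9.93% of all 27025 genes in the table. YY1 letters were in 12 genes (17.6%, against 5.2% of tested genes and 3.19% of all genes) and NRF-1 letters in 8 (11.8%, against 5.81% and 3.05%). ERR letters were in 4 (5.88%, against 4.15% and 5.38%). At least 1 of the 4 motifs was in 39 genes (57.4%), against 30.4% of tested genes and 19.7% of all genes. A match describes letters in the window and not binding of a factor.

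Libraries held 18457663 to 26981745 recovered reads, and 6 defining genes of skeletal muscle (Acta1, Ckm, Mb, Ttn, Des and Neb) summed to 79829 to 96939.8 CPM (counts scaled to the same total in each library) in every library of this muscle. Single libraries stood apart. The summed level of 18 hepatocyte markers was 3833 CPM in MHS replicate 2, 465 in MHS replicate 3, 230.5 in PHS replicate 1 and 173 in NCS replicate 2. It was 10.8 to 34.9 in the other 11 libraries. Each marker is above the filter on low values, but that filter is a mean over 15 libraries, which the high libraries alone may reach. Fibroblast markers summed to 1619 CPM in MHE replicate 3 and 203 to 456 elsewhere, and slow-fibre markers ranged over 746 to 5927. The mRNAs of the mitochondrial genome summed to 10678 CPM in MHS replicate 3, 12703 in NCS replicate 2 and 18089 in PHS replicate 3, against 24664 to 42781 in the other 12 libraries. Genes with at least 1 read numbered 17581 in MHS replicate 3 and 17699 in NCS replicate 2, and 19062 to 20771 in the others. The part of these differences in the results below was not tested. Counts of separated genes without these libraries are given where they moved by over 1.5 times.

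Per length, the mitochondrial ribosomal protein genes were expressed below the cytosolic ones. Their median was 9.43 RPKM (CPM per kilobase of exon), against 49.6 RPKM for 80 cytosolic ribosomal protein genes, 73.4 RPKM for 36 nuclear subunits of complex I and 2.26 RPKM for all genes tested. Large-subunit genes had a median of 12.9 RPKM and small-subunit genes 6.12 RPKM, while bacterial homologues (9.86 RPKM) and mitochondria-specific genes (9.31 RPKM) lay close together. Summed over all 77 genes the level was 1980 to 2370 CPM, lowest in PHE replicate 1 and highest in NCS replicate 3. The Mrpl genes had 1.99 to 2.17 times the summed reads of the Mrps genes in every library, so the balance of the 2 name groups moved little between animals. In bulk tissue, fewer cells of a type and less RNA per cell cannot be told apart.

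Single genes differed 47.5-fold per length although their proteins sit in the same particle. The highest were Mrps21 (72.6 ± 5.78 RPKM, SD over 15 libraries), a bacterial S21 homologue of the small subunit, Mrpl54 (52.7 ± 6.09 RPKM) and Mrps28 (50 ± 2.87 RPKM). Mrpl2 (48.1 ± 3.97 RPKM), whose bacterial homologue lies near the peptidyl transferase centre, and Mrpl14 (45.9 ± 7.34 RPKM), at the face where the subunits meet and where the assembly factor Malsu1 binds, completed the highest 5. The lowest were Mrps35 (1.53 ± 0.228 RPKM), Mrps30 (2.01 ± 0.518 RPKM), Mrps25 (2.13 ± 0.213 RPKM), Mrpl19 (2.17 ± 0.287 RPKM) and Mrpl47 (2.29 ± 0.590 RPKM). Exon length over all transcripts enters these values. With the length of 1 coding transcript per gene the median was 14.5 RPKM and the span 57.4-fold, and the order changed. Mrpl42 was then highest at 132 RPKM, against 23.9 RPKM by exon length, followed by Mrps21, Mrpl54, Mrpl14 and Mrps18a, and Mrps25 was lowest at 2.31 RPKM, followed by Mrpl19, Mrpl1, Mrpl47 and Mrps35. Mrps21, Mrpl54 and Mrpl14 were among the highest 5, and Mrps35, Mrps25, Mrpl19 and Mrpl47 among the lowest 5, by both lengths.

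**Figure D1:**
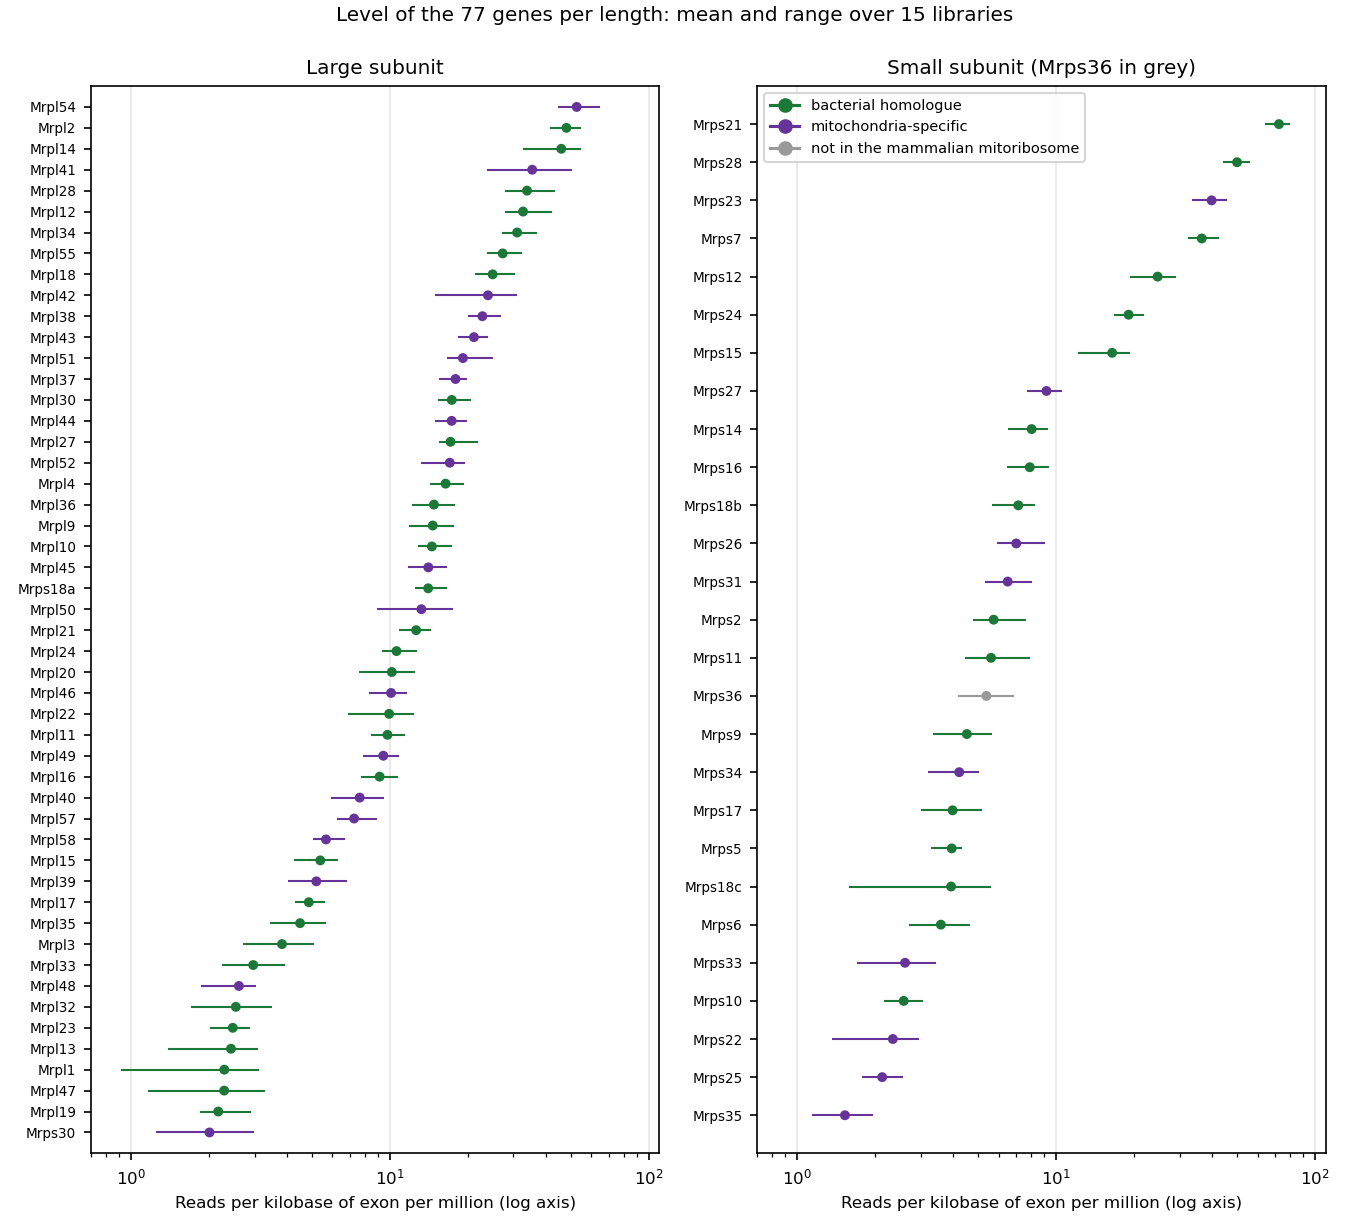
Level of each gene in RPKM on a log axis, large-subunit genes on the left and small-subunit genes with Mrps36 on the right. Points are means and lines the range over 15 libraries, green for bacterial homologues and purple for mitochondria-specific proteins. The genes run from 1.53 for Mrps35 to 72.6 for Mrps21, and the range of each gene covers only a part of that span.

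Genes with known special roles sat across this span. Mrpl12, which forms the flexible stalk that recruits translation factors, averaged 32.7 ± 3.63 RPKM. Mrps12, part of the decoding site, averaged 24.7 ± 2.62 RPKM and Mrpl44, a protein with a ribonuclease III fold whose mutation causes cardiomyopathy in humans, 17.3 ± 1.502 RPKM. Mrpl36, a small protein of the large subunit, averaged 14.8 ± 1.496 RPKM and Mrps18a 14.1 ± 1.15 RPKM. Mrpl58, a peptidyl-tRNA hydrolase built into the large subunit, averaged 5.66 ± 0.427 RPKM, and Mrps36 5.38 ± 0.754 RPKM. Of the small-subunit proteins Mrps34 and Mrps22, both mutated in human mitochondrial disease, Mrps34 averaged 4.23 ± 0.554 RPKM and Mrps22 2.34 ± 0.399 RPKM. Reads of Mrps36, Mrpl23 and Mrpl48 may be shared with pseudogene copies.

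The genes varied little between animals. The median coefficient of variation over 15 libraries was 10.5% (4.7% to 25.1%), against 15.2% for tested genes within the same range of mean, 12.2% for cytosolic ribosomal protein genes and 13.7% for complex I genes. It was under 10% in 34 genes, 10 to 20% in 38 and over 20% in 5. The steadiest were Mrpl44 at 4.7%, Mrpl30 at 5.3% and Mrpl45, thought to anchor the ribosome at the inner membrane, at 5.4%. Mrpl44 lay between 585 and 694 normalized counts in all libraries. The most variable were Mrps18c at 25.1%, Mrpl41 at 24.7% and Mrpl1 at 21.6%. Mrps18c is the least abundant gene of the set at a mean of 94.1 normalized counts, so counting error weighs most on it, whereas Mrpl41 averaged 709.

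Mrpl1 and Mrpl41 show what lay behind a high coefficient. Mrpl1 had 259.5, 238 and 225 normalized counts in MHE, 221, 229 and 155 in MHS, 254, 256 and 216 in PHE, 227, 257 and 190.0 in PHS and 197, 91.9 and 280.4 in NCS libraries. Its lowest values were in NCS replicate 2 and MHS replicate 3, and every exercised group overlapped its sedentary one. Mrpl41 had 762, 589 and 927 normalized counts in MHE, 903, 618 and 852 in MHS, 509.6, 1008 and 727 in PHE, 499, 531 and 932 in PHS and 561, 623 and 593 in NCS libraries. The 3 NCS libraries lay close together, each of the other groups held libraries far apart, and all groups overlapped NCS.

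A principal component of the 77 genes (log2 values centred per gene) held 52.0% of their variance, and the next held 12.9%. Its scores were 2.32 in NCS replicate 2, 2.28 in MHS replicate 3 and 1.14 in PHS replicate 3, which are the 3 libraries with the lowest mitochondrial mRNA, and -1.34 to 0.51 in the other 12. These 3 libraries belong to 3 groups, but the scores also separated the groups of the maternal arm. They were 0.51, 0.178 and 2.278 in MHS libraries, all above the -0.739, -0.278 and -0.454 in MHE libraries. The scores of PHE and PHS overlapped, and those of NCS overlapped every other group. At its high end were Mrps11, Mrpl54, Mrpl28, Mrps7 and Mrpl4, and at its low end Mrpl1, Mrpl47, Mrps18c, Mrps30 and Mrpl32. The loading of a gene followed the GC content of its transcript (Pearson r = 0.657 and Spearman rho = 0.668 across 77 genes, which share the same libraries). GC content ran from 39.6% to 60.4%, with a median of 49.8%. Of the 77 genes, 19 had their highest value in NCS replicate 2 and 13 in MHS replicate 3, while 17 had their lowest in PHS replicate 1.

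**Figure D2:**
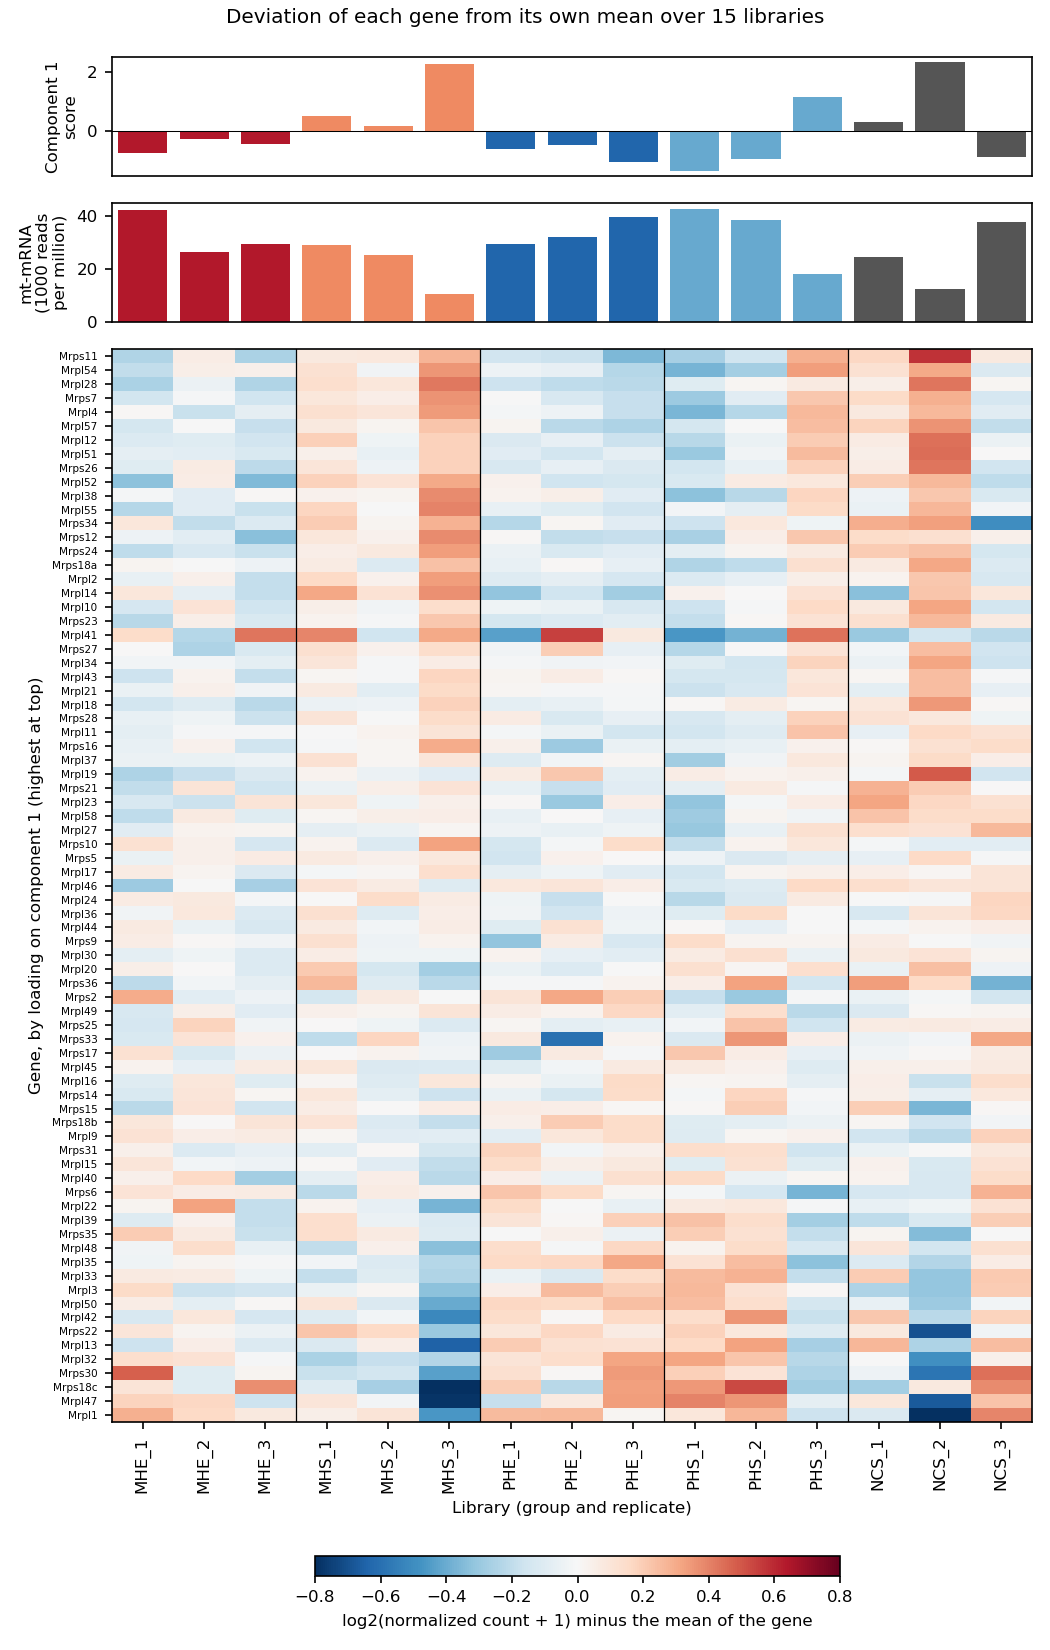
Deviation of each gene (rows, ordered by loading on the first component) from its own mean in each of 15 libraries (columns), as log2(normalized count + 1), with the component's score and the mitochondrial mRNA level of each library above. NCS replicate 2, MHS replicate 3 and PHS replicate 3 have the highest scores (2.32, 2.28 and 1.14) and the lowest mitochondrial mRNA bars. PHS replicate 1 has the lowest score (-1.34), further from 0 than that of PHS replicate 3.

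Pairs of genes had a median Pearson r of 0.076 over 15 libraries, against 0.434 within complex I, 0.313 within the cytosolic ribosomal proteins and -0.001 among all genes tested. The genes had loadings of both signs on the component above, so a median near 0 does not show that they vary independently. All values come from the same 15 libraries under the same scaling and are descriptions. The correlation of a gene with the mean of the other 76 had a median of 0.26 and was above 0 in 56 genes. That median was 0.46 on CPM and 0.44 after the smoothing by GC content described below. Mrpl58 (0.69), Mrps23 (0.67), a mitochondria-specific small-subunit protein, and Mrpl46 (0.65), in the central protuberance of the large subunit, were most like the rest. Mrpl32 (-0.46), Mrps6 (-0.45) and Mrpl1 (-0.41) were least like it. Mrpl32, which in yeast and mouse is matured by the m-AAA protease, had 307, 302 and 278 normalized counts in MHE, 235, 246 and 238 in MHS, 299.7, 309 and 347 in PHE, 348, 326 and 239 in PHS and 279, 199 and 287 in NCS libraries. All MHE values were above all MHS values and all PHE values above all NCS values.

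Differences between groups were tested with limma on log2(normalized count + 1) over 13499 genes, with Benjamini-Hochberg adjustment and a threshold of 0.05. In none of the 6 pairwise comparisons, in the difference of the exercise effects between the arms or in the test over 5 groups did a mitochondrial ribosomal protein gene pass, by limma, edgeR, DESeq2 or limma voom. Limma called no gene at all (0% of those tested in each comparison), and the share of all genes called by the other methods is not given here. The lowest limma adjusted p of the 77 genes was 0.516 for MHE against MHS, 0.991 for PHE against PHS, 0.566 for MHE against NCS, 0.291 for PHE against NCS, 1.0 for MHS against NCS and 0.92 for PHS against NCS. Differences below are therefore values that did not pass. Their medians over the 77 genes were -0.07 for MHE against MHS, -0.01 for PHE against PHS, -0.07 for MHE and PHE against NCS, -0.02 for MHS against NCS and -0.05 for PHS against NCS, each a log2 difference, against all-gene medians between 0.00 and 0.02. Scaling to CPM moved the all-gene median of MHE against MHS to 0.11 and of PHS against NCS to 0.10. It turned the members' medians to 0.03 and 0.05. Relative to all genes they were -0.07 and -0.06 under both scalings. Rescaling a library shifts all its genes nearly alike, so this sameness is no separate check.

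**Figure D3:**
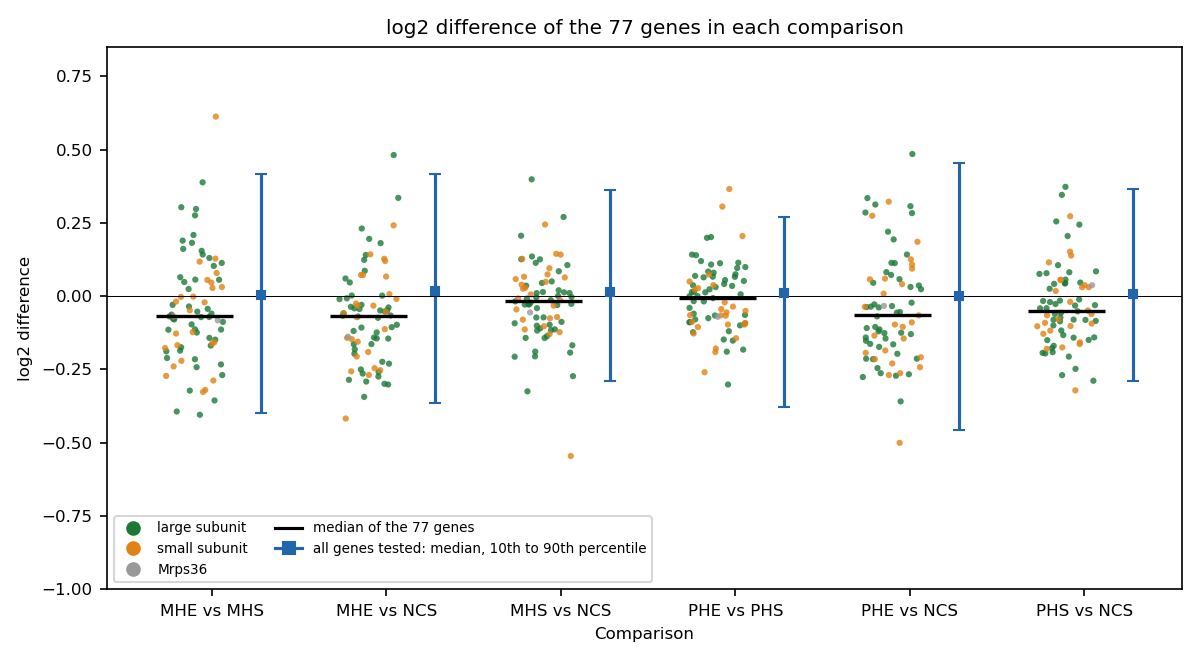
Log2 difference of each of the 77 genes in 6 comparisons, coloured by subunit, with their median as a black line. Blue squares and bars give the median and the 10th to 90th percentile of all genes tested. The medians of the 77 genes lie between -0.07 and -0.01, those of all genes between 0.00 and 0.02, and few of the 77 points reach past the blue bars.

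Exercise of high-fat-fed mothers was examined in MHE against MHS. In 20 of the 77 genes (26.0%) every MHE value was below every MHS value, where 8.61% of all genes tested were, and in 5 genes (6.49%) every MHE value was above, where 8.56% were. The lower ones were 14 of 50 large-subunit genes and 6 of 26 small-subunit genes. Unadjusted p was under 0.05 for 7 lower genes and 1 higher gene, where 5.33% and 4.21% of all genes were (9.54% in either direction).

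In the large subunit, Mrpl28, a homologue of bacterial L28, had 876, 1009 and 884 normalized counts in MHE libraries, against 1144, 1111 and 1397 in MHS libraries. No MHE value reached the lowest MHS value, and the log2 difference was -0.39 ± 0.13 (SE, unadjusted p = 0.00701, limma adjusted p = 0.516). Mrpl14 had 1030.0, 920.5 and 848 in MHE libraries, against 1199.8, 1050.4 and 1249 in MHS libraries, a log2 difference of -0.32 ± 0.13. Mrpl55, a bacterial L31 homologue, averaged 558 ± 27.1 normalized counts in MHE and 719 ± 99.9 in MHS libraries (SD, n = 3 each), and Mrpl52, a mitochondria-specific protein, 369.6 ± 61.7 in MHE and 486 ± 32.9 in MHS libraries. Their log2 differences were -0.36 ± 0.12 for Mrpl55 and -0.41 ± 0.15 for Mrpl52, without overlap of the groups in either. MHS replicate 3 held the highest value of Mrpl28, Mrpl14, Mrpl55 and Mrpl52 among the MHE and MHS libraries.

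In the small subunit, Mrps24, a homologue of bacterial S3 at the mRNA entrance, averaged 557 ± 15.01 normalized counts in MHE and 702 ± 78.4 in MHS libraries (SD, n = 3 each), a log2 difference of -0.33 ± 0.12. Mrps12, the protein of the decoding site, had 559.8, 543 and 455 in MHE libraries, against 613, 589 and 747 in MHS libraries, a log2 difference of -0.32 ± 0.14 without overlap. Both were highest in MHS replicate 3. Mrps18c went the other way, with 97.7, 85 and 118 normalized counts in MHE libraries and 84.8, 75.6 and 42.1 in MHS libraries, a log2 difference of 0.61 ± 0.28. The groups were separate by a narrow margin, and its lowest value was again in MHS replicate 3. Mrps24 and Mrpl14 overlap other expressed genes in the annotation (Urgcp and Tmem63b), and the sources do not say whether counting used strand, so reads of such pairs cannot be told apart. Of the 77 genes, 22 overlap another tested gene.

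The count of separated genes depended on the libraries and the scaling. Without MHE replicate 2 it was 32 of 77 lower (41.6%), where 17.9% of all genes were, since fewer libraries separate more easily. Without the 4 libraries with hepatocyte transcripts, which leaves MHS replicate 1 alone against 3 MHE libraries, it was 38 (49.4%), where 20.4% of all genes were. Without the 3 libraries lowest in mitochondrial mRNA it was 22 (28.6%), where 11.2% were. In this comparison 17 of 18 hepatocyte markers were lower at an unadjusted p under 0.05, but none passed and 0 were lower without overlap. Their summed level was 14.9 to 34.9 CPM in MHE libraries and 14.2, 3833 and 465 CPM in MHS replicates 1, 2 and 3. Within these 2 groups it was thus high in MHS replicates 2 and 3 only. On CPM 6 mitochondrial ribosomal protein genes were lower (7.79%) and 9 higher (11.7%), where 4.17% and 13.5% of all genes were.

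GC content moved with these differences. Across the 77 genes the MHE minus MHS log2 difference had a Pearson r of -0.634 and a Spearman rho of -0.667 with GC content. Across 12410 tested genes with a coding transcript r was -0.253 and rho -0.525, so the trend was not particular to the 77 genes. All values rest on the same 6 libraries. Of the 38 genes above the median GC content 16 were lower in MHE without overlap and 0 higher, and of the other 39 genes 4 were lower and 5 higher. The median log2 difference was -0.17 in the GC-rich genes and 0.03 in the others. After each library's deviations were smoothed against GC content (a step added after the data were seen), r across the 77 genes was 0.124, and 14 genes were lower without overlap (18.2%, where 6.85% of all smoothed genes were) and 1 higher (1.3%, where 6.87% were). For PHE against PHS, r was -0.091 across the 77 genes and -0.188 across the 12410 genes. The part of GC content in the results was not tested further.

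**Figure D4:**
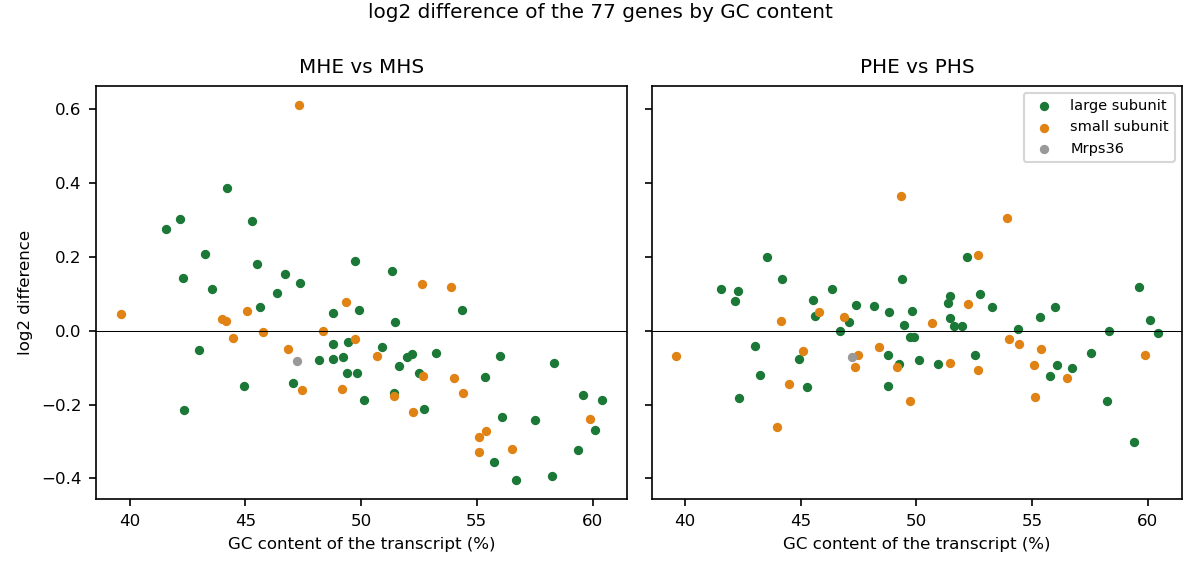
Log2 difference of each of the 77 genes against the GC content of its transcript, for MHE against MHS on the left and PHE against PHS on the right, coloured by subunit. The points slope down on the left (r = -0.634) and show little slope on the right (r = -0.091).

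Exercise of lean mothers mated with high-fat-fed males, PHE against PHS, separated few genes on the deposited scaling. In 4 genes (5.19%) every PHE value was below every PHS value, where 5.5% of all genes were, and in 3 (3.9%) above, where 5.11% were. These shares were near or under those of all genes. Unadjusted p was under 0.05 for 1 higher gene (Mrps2) and 1 lower gene (Mrpl14), where 1.84% and 1.93% of all genes were (3.76% in either direction). The 4 lower genes, Mrpl14, Mrpl28, Mrpl20 and Mrpl18, belong to the large subunit and the 3 higher genes, Mrps2, Mrps6 and Mrps18b, to the small subunit. The subunits as a whole did not follow this split. Their median log2 difference was 0.01 over 50 large-subunit genes and -0.06 over 26 small-subunit genes. With shares so near those of all genes, no pattern by subunit is read from these genes. The 3 higher genes are homologues of bacterial S2, S6 and S18.

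Mrps2 had 402, 463 and 428 normalized counts in PHE libraries, against 329, 305 and 371 in PHS libraries. All PHE values were above all PHS values, with a log2 difference of 0.37 ± 0.13 (SE, unadjusted p = 0.0123, limma adjusted p = 0.991). Mrps6 averaged 135 ± 9.68 in PHE and 109 ± 13.5 in PHS libraries (SD, n = 3 each), and Mrps18b 366 ± 20.4 in PHE and 317 ± 5.19 in PHS libraries. Mrps6 overlaps the expressed gene Slc5a3. Mrpl14 had 779, 866 and 798 in PHE libraries, against 993, 970.3 and 1047 in PHS libraries, a log2 difference of -0.30 ± 0.13, also without overlap. Mrpl28 averaged 912 ± 16.7 in PHE and 1041 ± 61.5 in PHS libraries and Mrpl20 364 ± 14.1 in PHE and 404 ± 17.9 in PHS libraries. Without PHS replicate 1 the lower genes numbered 16 (20.8%, where 10.9% of all genes were). Without PHE replicate 1 they numbered 10 (13.0%, where 10.3% of all genes were). Without PHS replicate 3 they numbered 10 (13.0%) and the higher ones 12 (15.6%), where 15.2% and 17.3% of all genes were. On CPM 16 were lower (20.8%, where 9.99% were) and 1 higher (1.3%, where 1.24% were). All 5 erythrocyte markers were higher in PHE at an unadjusted p under 0.05 (median log2 difference 1.09), with a summed level of 65.1 to 135 CPM in PHE and 33.1 to 65.1 CPM in PHS libraries. None passed, and their part in the result was not tested.

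The exercise effects of the 2 arms were compared directly as (MHE minus MHS) minus (PHE minus PHS). None of the 77 genes passed and none had an unadjusted p under 0.05, where 1.8% of all genes tested did (1.05% higher and 0.748% lower), and the lowest limma adjusted p was 0.999. The smallest unadjusted p was that of Mrpl46 (0.0879), with a difference of -0.31 ± 0.17 on the log2 scale. Mrpl46 had 262, 319 and 266 normalized counts in MHE, 346, 335 and 298 in MHS, 339, 343 and 332 in PHE and 295, 298 and 357 in PHS libraries, and the groups of each arm overlapped. The difference was 0.71 ± 0.40 for Mrps18c, -0.29 ± 0.18 for Mrps2, -0.26 ± 0.16 for Mrpl43, -0.25 ± 0.16 for Mrpl49 and -0.29 ± 0.19 for Mrps27. Mrpl43 overlaps Twnk, the gene of the mitochondrial DNA helicase. The median over the 77 genes was -0.08, against 0.00 over all genes, and on CPM it was 0.11 where the median of all genes moved to 0.19.

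All 4 high-fat groups were also set against NCS, and these comparisons share the 3 NCS libraries. In MHE against NCS, 15 genes (19.5%) were lower without overlap, where 4.72% of all genes were, and 0 higher, where 5.54% were. In PHE against NCS, 16 genes (20.8%) were lower, where 8.7% were, and 6 (7.79%) higher, where 11.7% were. MHS against NCS had 4 lower genes (5.19%, where 3.58% were) and 1 higher (1.3%, where 4.44% were), and PHS against NCS had 2 lower (2.6%, where 3.05% were) and 0 higher (where 2.64% were). Unadjusted p was under 0.05 for 8 lower and 0 higher genes in MHE, where 3.85% and 4.91% of all genes were (8.76% in either direction). In PHE it was so for 4 lower and 3 higher genes, where 5.62% and 8.09% were (13.7%). In PHS it was so for 2 lower and 0 higher genes, where 1.41% and 1.46% were (2.87%), and in MHS for 0 in either direction, where 1.4% were lower and 2.64% higher (4.04%). Whether the counts differ between comparisons was not tested. Of 6 markers of Schwann cells, 5 were lower at an unadjusted p under 0.05 in MHE, in PHE and in PHS against NCS (median log2 differences of -0.82, -0.82 and -0.65), with a summed level of 112 to 169 CPM in MHE, 113 to 156 in PHE, 123 to 187 in PHS and 139 to 327 in NCS libraries, and in MHS 0 were. All 5 erythrocyte markers were lower at that level in PHS (median -1.09). None passed, all lie above the filter on low values, and their part in the results was not tested.

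Mrps11, a homologue of bacterial S11 on the platform of the small subunit, had 229, 283 and 228 normalized counts in MHE, 286, 287 and 327 in MHS, 244, 240.3 and 211 in PHE, 225, 242 and 329.8 in PHS and 304, 405 and 287 in NCS libraries. MHE and PHE lay wholly below NCS, and NCS replicate 2 was the highest of all 15. Its log2 difference was -0.50 ± 0.17 in PHE (unadjusted p = 0.00945, limma adjusted p = 0.291) and -0.42 ± 0.17 in MHE. Mrpl46, which overlaps the start of Mrps11 on the other strand and shares the promoter stretch shown above, averaged 282 ± 32.2 in MHE, 338 ± 5.46 in PHE and 346 ± 4.66 in NCS libraries (SD, n = 3 each). Its log2 difference from NCS was -0.30 ± 0.12 in MHE and -0.03 ± 0.12 in PHE. The pair had r = 0.492 over 15 libraries.

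Mrpl28 had 929.6, 908 and 897 normalized counts in PHE, 974, 1054 and 1095 in PHS and 1079, 1406 and 1055 in NCS libraries. PHE lay below NCS without overlap, as did the MHE values given above, with log2 differences of -0.36 ± 0.13 in PHE and -0.34 ± 0.13 in MHE. Mrpl58, the peptidyl-tRNA hydrolase, had 367, 446 and 397 in MHE, 429, 438 and 439 in MHS, 406, 425 and 404 in PHE, 348, 429.8 and 416 in PHS and 497, 469 and 469.9 in NCS libraries. All 12 high-fat libraries were below all 3 NCS libraries for this gene. The log2 difference from NCS was -0.25 ± 0.11 in MHE, -0.14 ± 0.11 in MHS, -0.22 ± 0.11 in PHE and -0.27 ± 0.11 in PHS, and the limma adjusted p was 0.566 in MHE, 1.00 in MHS, 0.393 in PHE and 0.920 in PHS. That all 12 libraries lie below NCS was noticed after the values were seen, and how many of all genes tested share this pattern was not counted.

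**Figure D5:**
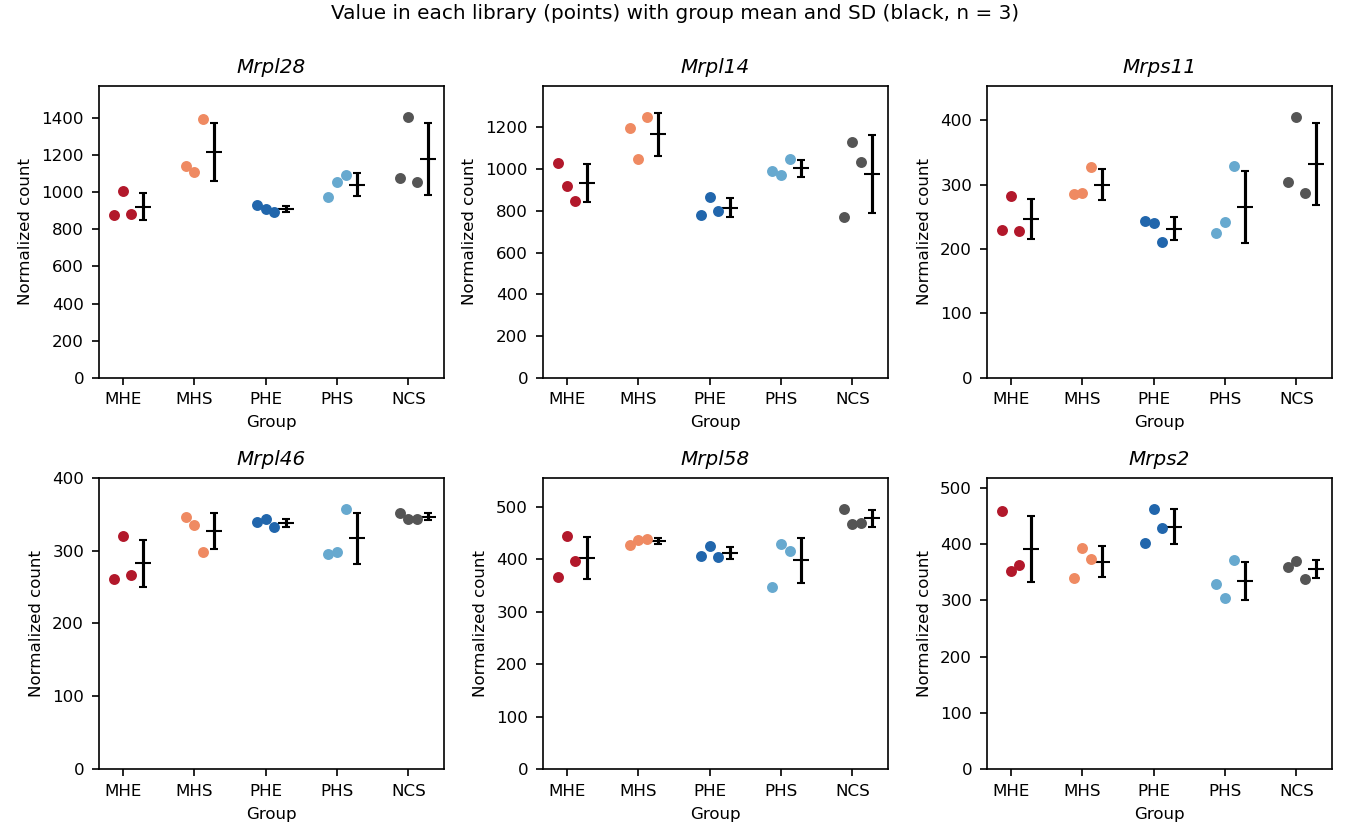
Normalized count of 6 genes in each library (points) by group, with the group mean and SD in black (n = 3). Mrpl58 is below all NCS values in every high-fat library, Mrpl28 and Mrps11 are below all NCS values in MHE and PHE libraries, and Mrps2 is higher in PHE than in PHS libraries.

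Further genes differed from NCS in a similar range. Mrpl18, in the central protuberance, averaged 701 ± 27.5 normalized counts in MHE and 869 ± 109.5 in NCS libraries (SD, n = 3 each), a log2 difference of -0.30 ± 0.11 without overlap. It overlaps the expressed gene Tcp1. Mrps23 averaged 1307 ± 124 in MHE, 1294 ± 23.8 in PHE and 1555 ± 104 in NCS libraries, with log2 differences of -0.25 ± 0.11 in MHE and -0.26 ± 0.11 in PHE. Mrps21, the gene highest per length, had 1158, 1061 and 1132 in PHE libraries, against 1457, 1385 and 1208 in NCS libraries, a log2 difference of -0.27 ± 0.11. The groups of Mrps23 in both comparisons and of Mrps21 in PHE against NCS did not overlap.

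In PHE, the higher genes were Mrpl50, Mrpl35, Mrps2, Mrpl32, Mrps18b and Mrpl49. Mrpl50, a mitochondria-specific protein, had 698, 690.2 and 735 normalized counts in PHE libraries, against 595, 507 and 612 in NCS libraries, a log2 difference of 0.31 ± 0.14. Mrpl35 averaged 484 ± 28.1 in PHE and 392 ± 40.7 in NCS libraries (SD, n = 3 each), a log2 difference of 0.31 ± 0.14. Among the NCS libraries both genes were lowest in replicate 2, and the GC content is 42.3% for Mrpl50 and 43.6% for Mrpl35, below the median of the set. In PHE against NCS, 12 of 38 GC-rich genes and 4 of the other 39 were lower without overlap, and r with GC content was -0.456 across the 77 genes, beside -0.475 across 12410 genes. After the smoothing by GC content 20 genes were lower without overlap (26.0%, where 8.53% of all smoothed genes were) and 4 higher (5.19%, where 10.0% were). In MHE against NCS 18 were then lower (23.4%, where 5.81% were) and 0 higher (where 6.37% were). The part of GC content in these counts was not tested.

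In the sedentary groups, Mrpl23, a homologue of bacterial L23 at the exit of the tunnel, averaged 277 ± 11.7 normalized counts in MHS, 256 ± 34.1 in PHS and 311 ± 22.1 in NCS libraries (SD, n = 3 each), with log2 differences of -0.17 ± 0.14 in MHS and -0.29 ± 0.14 in PHS. Mrpl27, a bacterial L27 homologue, averaged 369.5 ± 11.8 in MHS and 427 ± 23.03 in NCS libraries (-0.21 ± 0.12), and Mrps25, a mitochondria-specific protein, 303 ± 11.8 in MHS and 328 ± 1.83 in NCS libraries (-0.11 ± 0.12). Mrpl49, the 1 gene higher in MHS, averaged 413 ± 12.4 in MHS and 389 ± 19.6 in NCS libraries (0.08 ± 0.11). These separations were small, and none of these genes in MHS had an unadjusted p under 0.05.

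The counts against NCS depended on single libraries. Without NCS replicate 3 26 genes were lower in MHE (33.8%, where 16.2% of all genes were) and 30 in PHE (39.0%, where 20.7% were). In PHS against NCS, leaving out 1 of the other 5 libraries (PHS replicates 1 and 2 and the NCS replicates) gave 4 to 8 lower genes (5.19% to 10.4%, where 5.22% to 12.1% were), leaving out PHS replicate 3 gave 22 lower genes (28.6%, where 16.1% were) and leaving out the 3 libraries low in mitochondrial mRNA 25 (32.5%, where 19.9% were). Without the 4 libraries with hepatocyte transcripts it had 10 lower (13.0%, where 9.94% were) and 4 higher genes (5.19%, where 9.06% were), and without the 2 with few detected genes 6 lower (7.79%, where 5.47% were). In MHS against NCS, leaving out MHS replicate 1 gave 10 lower genes (13.0%, where 6.53% were), MHS replicate 3 or NCS replicate 3 gave 7 each (9.09%, where 6.49% and 8.65% were), and NCS replicate 2 gave 11 lower (14.3%, where 12.8% were) and 11 higher genes (14.3%, where 12.1% were). Without the 4 libraries with hepatocyte transcripts, which leaves 1 MHS and 2 NCS libraries, 22 genes were lower (28.6%, where 30.5% were) and 26 higher (33.8%, where 30% were). Without MHS replicate 3 and NCS replicate 2, which are also the libraries low in mitochondrial mRNA in these groups, 15 were lower (19.5%, where 16.9% were) and 13 higher (16.9%, where 16.7% were). On CPM 4 genes were lower in MHE (5.19%, where 3.27% were) and 10 in PHE (13.0%, where 8.86% were).

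Over the 5 groups together, 2 genes had an unadjusted p under 0.05, where 6.71% of all genes did. They were Mrpl28 (limma F = 4.502, unadjusted p = 0.0138) and Mrpl14 (F = 3.83, unadjusted p = 0.0245), both with a limma adjusted p of 0.715. Mrpl14 averaged 933 ± 91.5 normalized counts in MHE, 1166 ± 104 in MHS, 814 ± 45.7 in PHE, 1003 ± 39.7 in PHS and 977 ± 186 in NCS libraries (SD, n = 3 each). PHE was lowest and MHS highest, while the NCS values overlapped both. Mrps11, Mrpl55, Mrps24 and Mrpl32 followed, with unadjusted p between 0.0525 and 0.101.

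The rest of the mitochondrial translation system was described by lists chosen with earlier results of these data known, and none of its genes passed in any comparison. Among 5 mitoribosome proteins with other names (Dap3, Ptcd3, Gadd45gip1, Aurkaip1 and Chchd1), Aurkaip1 averaged 1015 ± 45.4 normalized counts in PHE and 1286 ± 175 in NCS libraries (SD, n = 3 each), a log2 difference of -0.33 ± 0.12 (unadjusted p = 0.0131, limma adjusted p = 0.296). For MHE against MHS, the median log2 difference was -0.03 over 26 assembly factors, 0.06 over 15 translation factors, -0.10 over 20 mitochondrial aminoacyl-tRNA synthetases and 0.02 over 12 genes of mitochondrial DNA transcription and copying. Unadjusted p was under 0.05 for 2 lower assembly factors and 3 lower synthetases (7.69% and 15%, where 5.33% of all genes were), and for none of the other 2 lists. Complex I, whose mitochondrial subunits these ribosomes make, had 9 of 36 nuclear genes lower at that level (25%) and 16 lower without overlap (44.4%, where 8.61% of all genes were), with a median of -0.13.

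Among regulators, Ppargc1a, the PGC-1alpha coactivator of mitochondrial biogenesis, averaged 483 ± 216 normalized counts in MHE and 669 ± 134 in MHS libraries (SD, n = 3 each), a log2 difference of -0.54 ± 0.34. Polrmt, the mitochondrial RNA polymerase, averaged 1115 ± 52.2 in MHE and 1361 ± 169 in MHS libraries (-0.28 ± 0.16). Tfam, which packages and transcribes mitochondrial DNA, averaged 658 ± 88.0 in MHE and 615 ± 55.5 in MHS libraries (0.09 ± 0.17). None of the 3 passed in any comparison. The 2 mitochondrial rRNAs, which the depletion step removes to an unknown extent, had a median log2 difference of 0.65 for MHE against MHS and 0.81 for PHE against NCS, and the 7 mitochondrial mRNAs tested 0.59 and 0.56. These medians are positive where those of the mitochondrial ribosomal protein genes are -0.07 in both comparisons, and no difference passed. For MHE against MHS the groups overlapped for every one of these RNAs, with SE of 0.35 to 0.44. For PHE against NCS the 2 rRNAs and 1 of 7 mRNAs were higher without overlap, where 11.7% of all genes were. The reference groups hold MHS replicate 3 and NCS replicate 2, the libraries lowest in mitochondrial mRNA (10678 and 12703 CPM), and their part was not tested. In PHE against NCS, 22 of 80 cytosolic ribosomal protein genes were lower at an unadjusted p under 0.05 (27.5%, where 5.62% of all genes were), with a median log2 difference of -0.22.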

How the data were processed

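Per the labels' protocols, quadriceps RNA of 15 mice was depleted of ribosomal RNA, made into stranded libraries and sequenced as single-end reads of 100 bases. The submitters' processing notes name the build mm10 and the tools DESeq2 1.11.8, featureCounts 1.5.2 and STAR 2.5.2b. The deposited table gives the authors' normalized signal per gene, deduced from the values to be a read count divided by a size factor per library: the values of a column were all multiples of 1 step (tolerance 0.001 of a read, 100% of values), so whole reads were recovered (18457663 to 26981745 per library). The sources do not say whether counting used strand. GENCODE M21, on GRCm38 (equal to mm10), held 50462 (99.6%) of the 50686 identifiers and gave symbols, coordinates, exon lengths and, from the transcript with the longest coding sequence, GC content for all 77 members. Promoters are RefSeq's, GRCm38.p6.

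Groups were compared with limma (version 3.58.1, R 4.3.3; a linear model with moderated variances and an intensity trend) on log2(normalized value + 1). All 15 libraries entered 1 fit of the 13499 genes whose mean reached 10. Such fold changes understate the change of low genes. Alternatives were edgeR 4.0.16, DESeq2 1.42.0 and limma voom on recovered reads, pseudocounts of 0.5 and 5, minimum means of 1 and 50, TMM and CPM scaling, a factor for the start of the title code, and leaving out each library. Fits without the libraries that stood apart and smoothing by GC content (lowess span 0.3) were added after the data were seen. With a group reduced to 1 library, that library is assumed to vary like the others. No library was a copy of another library of its group. The chi-square of 2 replicates' reads, divided by its degrees of freedom, was 18.0 to 87.3 over genes and 2.3 to 18.6 over members, where sampling alone gives about 1. Libraries of different groups were not compared in this way. Samples were grouped by the group label. Replicate numbers follow accession order and pair nothing.

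The members and the 19 gene lists were chosen with earlier results of these data known. Members named are, per comparison, those past the threshold, filled to 6 by smallest unadjusted p among members whose groups do not overlap, the 5 highest and lowest per length, the 3 most and least variable, the 3 most and least like the others, and 10 set by role. Counts by group separation and components are descriptions. Tables and plots used Python with matplotlib 3.10.9, numpy 2.4.6, pandas 2.3.3 and scipy 1.17.1.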

Additional observations from a re-analysis of the deposited data

How the results depend on the processing

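No mitochondrial ribosomal protein gene was called under any of the 29 settings other than the one reported. The share of all genes called under those settings is not given here. All 933 values of named genes under alternatives stayed short of the threshold, with a lowest adjusted p of 0.122. Those that are log2 differences all kept their direction, while those of the test over 5 groups have none. No paired analysis was possible because the labels give no replicate numbers.

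On CPM the members' median log2 difference was 0.034 for MHE against MHS, 0.0084 for MHE against NCS, 0.047 for PHS against NCS, -0.093 for PHE against PHS and 0.11 for the difference of exercise effects, and the genes lower without overlap numbered 6 for MHE against MHS (4.17% of all genes), 4 for MHE against NCS (3.27%) and 10 for PHE against NCS (8.86%). With the title code as a factor, which cannot be fitted for MHS or MHE against NCS, the median was -0.11 for MHE against MHS and -0.12 for the difference. Within MHE both values rest on replicate 3 alone, since the other MHE libraries share their code with no library. The median was -0.038 for PHE against PHS with edgeR and -0.10 for MHE against NCS after GC smoothing. Without the 4 libraries with hepatocyte transcripts it was 0.016 for MHS against NCS, -0.053 for PHE against PHS and -0.0095 for PHS against NCS, and 38 genes were lower without overlap for MHE against MHS (20.4% of all genes). The cause of these moves was not tested.

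Leaving out 1 library at a time, the median ranged from -0.11 to -0.053 for MHE against MHS, -0.10 to -0.055 for MHE against NCS, -0.04 to 0.01 for MHS against NCS, -0.053 to -0.00012 for PHE against PHS, -0.10 to -0.04 for PHE against NCS, -0.080 to -0.020 for PHS against NCS and -0.10 to -0.039 for the difference. Genes lower without overlap ranged from 20 to 32 for MHE against MHS (11.2% to 17.9% of all genes), 17 to 26 for MHE against NCS (7.06% to 16.2%) and 18 to 30 for PHE against NCS (11.8% to 20.7%), since fewer libraries separate more easily. With the length of 1 coding transcript the median level was 14.5 RPKM. The members' median correlation with the others was 0.46 on CPM and 0.44 after GC smoothing.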

Other observations

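Of the 77 genes, 26 have a protein-coding neighbour on the other strand whose start lies within 1000 bases, with overlaps of up to 500 bases allowed, and 23 of these neighbours were tested. Mrpl46 and Mrps11 are each other's neighbour, which leaves 22 distinct pairs. Over 15 libraries their correlation had a median of 0.322 and was above 0 in 17 of the 22, as a description, since all pairs share the same libraries and scaling. The highest were Mrpl2 with Klc4, a kinesin light chain gene (r = 0.947, starts 207 bases apart), Mrpl41 with Pnpla7, a lysophospholipase gene (0.869, 935 bases), Mrpl54 with Apba3 (0.836, 26 bases) and Mrpl32 with the proteasome gene Psma2 (0.755, 75 bases). Mrps12 and Sars2, which encodes the mitochondrial seryl-tRNA synthetase, start 172 bases apart (0.715).

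The lowest was Mrps18b with Ppp1r10, a regulatory subunit gene of protein phosphatase 1 (r = -0.888, starts 45 bases apart). Mrps18b had 355, 335 and 358 normalized counts in MHE, 361, 309 and 293 in MHS, 344, 384 and 370.3 in PHE, 313, 316 and 323 in PHS and 337, 300.0 and 328 in NCS libraries. Ppp1r10 had 290.1, 359 and 299.7 in MHE, 288, 398 and 432 in MHS, 261, 238 and 272 in PHE, 355, 327 and 323 in PHS and 296, 462 and 391 in NCS libraries. Pairs were singled out after their values were seen.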
